A study of Mus musculus with 16 samples.

Results

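The Mir31 hairpin gives rise to 2 mature miRNAs, and both had probes on the mouse miRNA arrays used in this study: mmu-miR-31, from the 5p arm, and mmu-miR-31*, from the 3p arm. They were found by these names in the scanner files, as 2 of the 577 miRNAs on the array, and both were detected on all 16 arrays. The hairpin was chosen by the higher signal of its strands in irradiated than in non-irradiated skin, so that difference and the change of the strand ratio with irradiation are given as values with no test. Dorsal skin came from female hairless albino SKH-1 mice on a mixed SKH1-C57/Bl6-SV129 background. The methods give their age as 8 to 12 weeks and do not say at which point of the experiment. WT mice (Ppard+/+) and their KO littermates (Ppard-/-, lacking the nuclear receptor PPARβ/δ) received UVB for 12 weeks at 70 mJ/cm2, 3 times a week, or none, which makes 4 groups of 4 arrays: WT no UV, WT UV, KO no UV and KO UV. According to the methods, controls were sham-handled mice of the same age and the irradiated skin was free of lesions. The methods give 4 animals per group for each experiment and the labels do not tie each array to a mouse, so p-values measure the spread between these arrays. Ppard mRNA was not measured on these arrays, so the deletion was not checked here.

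A miRNA hairpin is cut first in the nucleus and then in the cytoplasm to leave a short duplex, of which 1 strand is usually kept by Argonaute and the other is mostly lost. The kept strand finds its target mRNAs through its seed, the bases 2 to 8 from its 5′ end. In skin, miR-31 is known from keratinocytes, where it is raised in wounds and in psoriatic plaques downstream of NF-κB and STAT3 signalling, and from the growing hair follicle. Described targets include the factor inhibiting HIF and the phosphatase subunit Ppp6c.

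The mature sequences are shown because the 2 strands have different seeds and were read by different probes. They are RefSeq sequences on GRCm38.p6, 5′ to 3′, with the seed in capitals. MiR-31-5p (22 bases) lies at chr4:88910614-88910635 and miR-31-3p (23 bases) at chr4:88910577-88910599, both on the minus strand.
miR-31-5p: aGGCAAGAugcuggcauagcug
miR-31-3p: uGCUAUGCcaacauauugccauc
The hairpin of 106 bases (chr4:88910557-88910662, minus strand) is printed with both mature strands in capitals, separated by 14 bases of loop.
Mir31 hairpin: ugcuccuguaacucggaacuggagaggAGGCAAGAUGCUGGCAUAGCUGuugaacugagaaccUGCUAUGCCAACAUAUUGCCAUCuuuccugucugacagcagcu
Aligned antiparallel without gaps, 17 of 21 facing bases of the mature strands could form Watson-Crick pairs. None of the other mouse miRNAs in the RefSeq table of 1738 mature entries held the seed of either strand. In the RefSeq table Mir31 lies within the span of the lncRNA gene Gm49890, and the nearest protein-coding neighbour on its lower-coordinate side is Ifne, an interferon gene of epithelia.

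Each strand was read by 2 probes of 10 spots each. On mm9, the build named in the file headers, the miR-31 probes matched 17 and 16 bases from position 88556518 of chromosome 4, and the miR-31* probes 18 and 19 bases from position 88556481. No spot of the 4 probes was saturated on any array. The total gene signal, the sum that the scanner software makes over the probes of a miRNA, ranged from 287 to 1204 intensity units for miR-31 and from 44.7 to 189 for miR-31*. The software's own error was 7.29 to 8.08% of the signal for miR-31 and 7.89 to 12.5% for miR-31*.

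Irradiation and slide coincided, since the 8 irradiated arrays shared 1 slide and the 8 non-irradiated arrays the other, so a UV effect and a slide effect cannot be told apart. The rows of the irradiated slide were also split by genotype, WT in row 1 and KO in row 2, and those of the other slide were mixed. The SD of negative control spots was 9.10 to 10.3 units on the irradiated slide against 3.66 to 4.25 on the other, and 184 to 206 miRNAs were detected against 216 to 266. Total signal per array ranged from 170979 to 395200 units. The number of arrays limits the precision.

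Quantile-normalized signal is used from here on, on a log2 scale where 1 unit is a doubling, unless another scale is named. On it both strands stood higher on every irradiated array than on 7 of the 8 non-irradiated arrays, and the exception was WT no UV replicate 1. Before normalization KO no UV replicate 2 was an exception too, at 845 units for miR-31 and 132 for miR-31*, against lowest irradiated signals of 814 and 118. For miR-31 the WT no UV arrays read 10.02, 9.01, 8.72 and 8.91 (replicates 1 to 4), with a mean of 9.16 ± 0.58 (SD, n = 4). The KO no UV arrays read 8.39, 9.11, 8.44 and 8.82, with a mean of 8.69 ± 0.34. The WT UV arrays read 9.95, 9.88, 9.77 and 9.91, with a mean of 9.88 ± 0.08. In these values replicate 1 of WT no UV sat at the level of irradiated skin, and its 3 companions lay among the KO no UV arrays. The KO UV arrays read 10.02, 9.85, 10.22 and 9.88, with a mean of 9.99 ± 0.17. Some arrays share a value to the last digit, because quantile normalization gives the same value to the same rank.

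MiR-31*, the strand that is mostly lost from the duplex, behaved alike. It read 7.35, 6.17, 6.05 and 6.40 on the WT no UV arrays, with a mean of 6.49 ± 0.59 (SD, n = 4). On the KO no UV arrays it read 5.37, 6.40, 5.70 and 6.09, with a mean of 5.89 ± 0.45. Replicate 1 was again the only WT no UV array among the irradiated values. The WT UV arrays read 7.45, 7.35, 7.27 and 7.41 (mean 7.37 ± 0.08), and the KO UV arrays 7.23, 7.18, 7.50 and 7.45 (mean 7.34 ± 0.16). From lowest to highest, miR-31 was ordered KO no UV, WT no UV, then WT UV and KO UV. MiR-31* had the same order except that KO UV and WT UV, 0.03 apart, changed places. All neighbours in these orders overlapped, and WT no UV overlapped irradiated skin through replicate 1 alone.

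**Figure D1:**
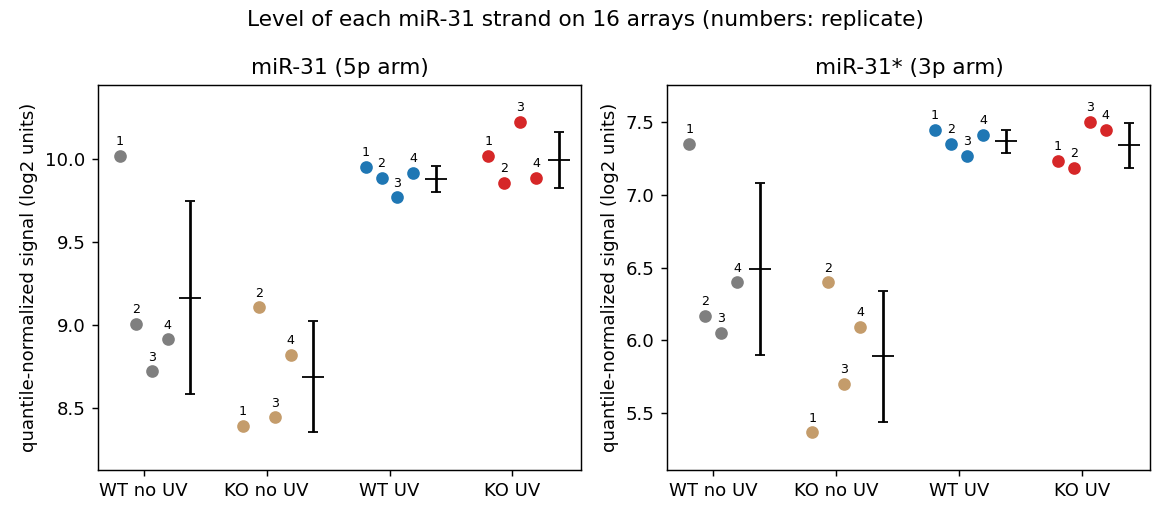
Quantile-normalized log2 signal of miR-31 (left) and miR-31* (right) on each of the 16 arrays, by group. Points are arrays numbered by replicate, and the bar beside each group is its mean ± SD (n = 4). Irradiated arrays sat at 9.77 to 10.22 for miR-31 and 7.18 to 7.50 for miR-31*, and WT no UV replicate 1 reached the same levels.

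In WT skin UV minus none was 0.71 log2 units for miR-31, a 1.64-fold higher level, and 0.88 for miR-31*, or 1.84-fold. In KO skin it was 1.30 for miR-31, or 2.47-fold, and 1.45 for miR-31*, or 2.73-fold. Among the 228 miRNAs tested, miR-31 stood at place 12 from the top in WT and 5 in KO, and miR-31* at place 6 and 3. These places use the same contrasts that drew attention to the hairpin and are a description. In WT neither strand separated irradiated from non-irradiated arrays, where 13.6% of tested miRNAs lay higher without overlap, and in KO both strands did, where the share was 11.8%. This separation depended on the normalization. Without it both strands overlapped in KO (the lowest irradiated and highest non-irradiated values were 9.68 and 9.72 for miR-31, and 6.89 and 7.05 for miR-31*), and in WT miR-31* did not overlap (7.15 and 7.02). By adjusted p under 0.05 in limma, 16.2% of the tested miRNAs were called in WT and 29.8% in KO, in either direction.

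Leaving out WT no UV replicate 1 and renormalizing raised UV minus none in WT to 1.01 for miR-31 and 1.16 for miR-31*. With it left out, the lowest WT UV value of miR-31 (9.77) lay above the highest remaining WT no UV value (9.01), and for miR-31* the corresponding values were 7.27 and 6.40. That array did not stand apart as a whole. Over the 228 tested miRNAs it lay over 0.5 log2 units from the mean of its 3 companions for 30 miRNAs, against 32, 60 and 13 for replicates 2, 3 and 4 measured the same way. The 2 strands were 1.14 units above the mean of the companions each, at places 4 and 3 from the top, after miR-196a (1.48) and miR-196b (1.26), miRNAs of the Hox clusters. These names were chosen after their values were seen.

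**Figure D2:**
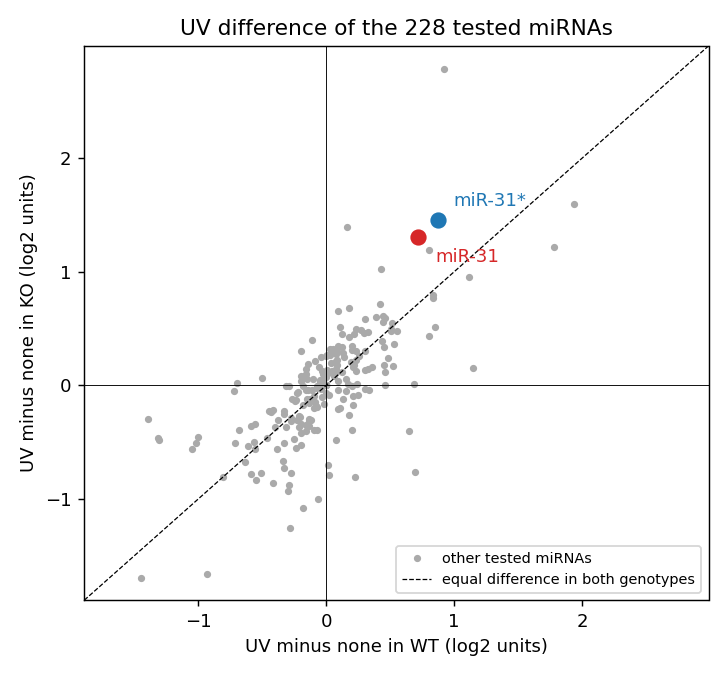
UV minus none in WT (horizontal) against UV minus none in KO (vertical), in log2 units, for the 228 tested miRNAs, with the 2 strands marked and a dashed line of equal difference. The strands lie next to each other in the upper right, at 0.71 and 1.30 for miR-31 and at 0.88 and 1.45 for miR-31*.

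The spread of the strands changed with the group. Without irradiation their SD over 4 arrays was 1.84 to 2.81 times the median SD of the tested miRNAs, 0.21 in WT and 0.18 in KO. In irradiated skin it was 0.63 times the median in WT for both strands, and 0.96 and 0.89 times the median in KO for miR-31 and miR-31*. The order of WT UV and KO UV depended on the normalization. Before it, the SD of the miR-31 total gene signal was 164 units in WT UV (mean 1012) and 49.8 in KO UV (mean 886). Without irradiation it was 250 units in WT (mean 538) and 214 in KO (mean 548). In WT no UV 92.1% of tested miRNAs had a smaller SD than miR-31, whereas in WT UV 29.4% did. The WT no UV spread rested on replicate 1, without which (an alternative chosen after seeing the data) the SDs were 0.15 and 0.18 over 3 arrays, beside a median of 0.19.

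The study compared genotypes to ask which miRNAs depend on PPARβ/δ, and neither strand passed the test for a genotype difference. Without irradiation KO minus WT was -0.47 ± 0.24 log2 units for miR-31 (SE, 95% confidence interval -0.99 to 0.04, limma adjusted p = 0.353). MiR-31* differed by -0.60 ± 0.26 (-1.17 to -0.04, limma unadjusted p = 0.0387, adjusted p = 0.288). No tested miRNA was called in this comparison (0%), and 36 of 228 (15.8%) had an unadjusted p under 0.05. Both differences rested partly on WT no UV replicate 1, without which they were -0.19 and -0.32. The sign turned without normalization for miR-31 (0.064) and with normexp for both strands (0.34 and 0.082). Without normalization the difference of miR-31* kept its sign but shrank to -0.0066.

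After irradiation KO minus WT was 0.11 ± 0.24 for miR-31 (SE, 95% confidence interval -0.40 to 0.63, limma adjusted p = 0.955) and -0.03 ± 0.26 for miR-31* (-0.59 to 0.54, adjusted p = 1). In this comparison 2.19% of tested miRNAs were called. With slide row as a covariate the values were 0.52 and 0.23 (limma adjusted p = 1 for both), and without normalization -0.18 and -0.31. The interaction, the UV difference in WT minus that in KO, was -0.59 ± 0.34 for miR-31 (-1.32 to 0.14, limma adjusted p = 0.543) and -0.57 ± 0.37 for miR-31* (-1.37 to 0.23, adjusted p = 0.583), beside 2.19% called. Without WT no UV replicate 1 the interaction was -0.30 for miR-31 and -0.29 for miR-31*. It was above 0 for both strands without normalization (0.24 and 0.31) and with normexp (0.25 and 0.26), and with slide row as a covariate it was -0.996 and -0.83 (limma adjusted p = 0.511 and 0.796). A difference between the genotypes in the size of the UV effect was not detectable with this number of arrays, and the intervals leave room for differences of more than 1 log2 unit.

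Without normalization between arrays the total gene signals gave another order of the genotypes. On that scale UV minus none was 1.01 in WT and 0.77 in KO for miR-31, and 1.13 and 0.82 for miR-31*. The mean of the irradiated arrays was higher in both genotypes and for both strands on this scale and in the authors' own normalized table, where UV minus none was 0.64 and 1.22 for miR-31 in WT and KO and 0.81 and 1.31 for miR-31*.

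The 2 strands moved together from array to array. Their log2 signals correlated at r = 0.98 over the 16 arrays, and at r = 0.94 after the group means were subtracted. The 2 measurements share the array, its RNA and its normalization, and the 16 points fall into 4 groups. Of the 164 hairpins with both arms on the array, 14 had both arms detected on all arrays, and miR-31 had the highest correlation among them. The next were miR-133a (0.85) and miR-142 (0.85), with a median of 0.32 over the 14 and a lowest value of -0.07 for miR-125a. Over the 16 arrays r includes the UV difference for which the hairpin was chosen. After the group means were subtracted, the arms of miR-142 correlated as closely as those of miR-31 (0.944 and 0.945).

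**Figure D3:**
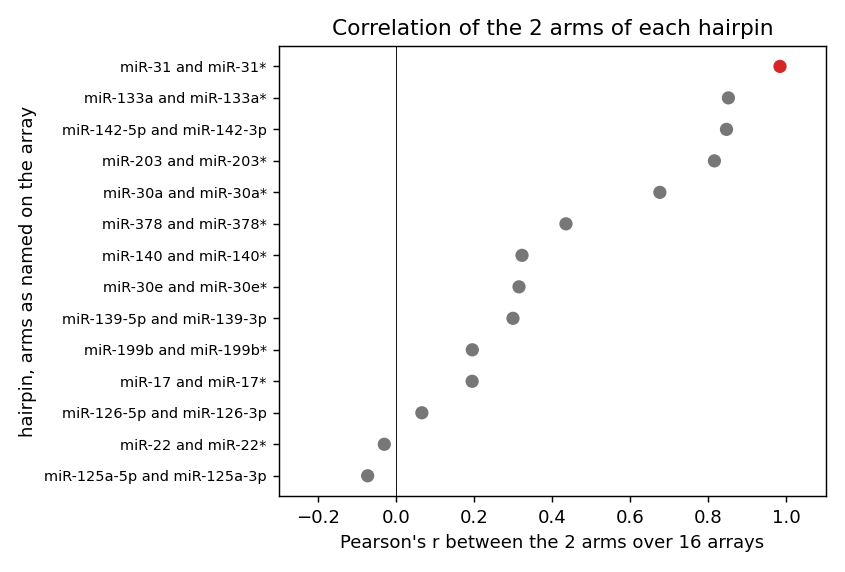
Pearson's r between the 2 arms of each of the 14 hairpins with both arms detected on all 16 arrays, sorted, with miR-31 in red. MiR-31 lies at 0.98, and the other hairpins lie between -0.07 and 0.85.

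The strand log2 ratio, miR-31 minus miR-31*, stayed within a narrow range. It is not a ratio of molecules, because the strands were read by probes of different sequence and length, and is useful only between arrays. It was 2.67, 2.84, 2.67 and 2.52 on the WT no UV arrays, with a mean of 2.67 ± 0.13 (SD, n = 4). On the KO no UV arrays it was 3.02, 2.71, 2.74 and 2.72, with a mean of 2.80 ± 0.15. WT no UV replicate 1, where both strands were high, lay in the middle of its group by this measure. The WT UV arrays read 2.50, 2.53, 2.50 and 2.50 (mean 2.51 ± 0.02), and the KO UV arrays 2.79, 2.67, 2.72 and 2.44 (mean 2.65 ± 0.15).

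UV minus none in the strand log2 ratio was -0.16 in WT and -0.15 in KO, and the groups overlapped in both genotypes. The sign of these values turned to 0.47 and 0.48 when spot signals were corrected with normexp instead. Across the 14 hairpins the mean absolute UV difference of the ratio ran from 0.05 for miR-378 to 0.62 for miR-126. MiR-31 stood at place 10 from the largest (0.15), and the SD of its ratio within groups, 0.126, was the lowest of the 14, whose median was 0.21. KO minus WT was 0.13 without irradiation (exact two-sided permutation p = 0.286) and 0.14 after it (exact p = 0.143), and the interaction was -0.02 (permutation p = 0.920). With 4 against 4 arrays the smallest p this test can give is 0.0286.

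**Figure D4:**
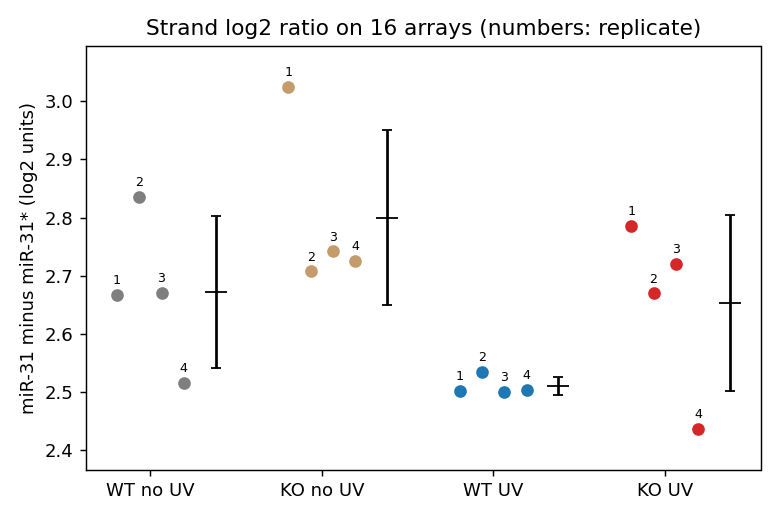
Strand log2 ratio, miR-31 minus miR-31*, on each of the 16 arrays by group. Points are arrays numbered by replicate, and the bar beside each group is its mean ± SD (n = 4). The 16 values lie between 2.44 and 3.02, and the 4 WT UV arrays within 2.50 to 2.53.

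Some single values of the ratio came with uneven spots. On KO UV replicate 4, which had the lowest ratio, the 10 spots of the miR-31 probes varied with a CV of 51.8% (17-base probe) and 39.5% (16-base probe). The median CV over arrays was 5.65% and 4.85%. On WT UV replicate 3 the longer miR-31* probe had a CV of 38.0% (median 10.9%), and that array's ratio, 2.50, lay within its group. Without KO UV replicate 4, KO minus WT after irradiation was 0.21, with all 3 remaining KO UV arrays above all 4 WT UV arrays (exact p = 0.0286). KO UV replicate 4 was singled out after its ratio was seen. With each of the 8 irradiated arrays left out in turn, exact p ran from 0.0286 to 0.314. Genotype and slide row coincided among irradiated arrays, so a genotype and a row difference cannot be told apart here. The degree of tightness of WT UV depended on the normalized scale, where the SD of its log2 ratio was 0.02. Before normalization that SD was 0.08, still the lowest, beside 0.23 in KO UV and 0.11 in both non-irradiated groups.

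The probes of each strand were compared with each other. For miR-31 the 17-base probe read 1.62 to 1.79 times the 16-base probe on all arrays, and their log2 signals correlated at r = 0.998 over the 16 arrays. Unnormalized, the 2 probes gave a UV difference of 1.02 and 0.99 in WT and of 0.78 and 0.76 in KO. For miR-31* the 19-base probe read 1.39 to 1.56 times the 18-base probe without irradiation and 1.53 to 1.80 times after it. The UV difference of miR-31* was accordingly larger on the 19-base probe, at 1.17 against 1.06 in WT and 0.89 against 0.71 in KO. The change of the strand ratio in KO skin turned from -0.15 to 0.12 when miR-31* was read from its 18-base probe alone.

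The same 5 miRNAs, out of 165 others detected on all arrays, had the profiles most like both strands over the 16 arrays. Pearson's r with miR-31 was 0.88 for miR-20a, 0.88 for miR-34b-5p, 0.88 for miR-7a, 0.87 for miR-18a and 0.86 for miR-20b. With miR-31* it was 0.91 for miR-7a, 0.90 for miR-34b-5p, 0.89 for miR-18a, 0.87 for miR-20a and 0.86 for miR-20b. All are below the 0.98 between the strands, and the median r of the 165 with miR-31 was 0.07. The points share arrays, slides and normalization, so these are descriptions. MiR-34b-5p is a p53-induced miRNA, and miR-18a, miR-20a and miR-20b are encoded in the miR-17-92 cluster and its paralogue on chromosome X.

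Their mature sequences, from RefSeq on GRCm38.p6 with the seed in capitals, show which of them share a seed.
miR-20a-5p: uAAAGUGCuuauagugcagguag
miR-20b-5p: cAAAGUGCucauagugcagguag
miR-18a-5p: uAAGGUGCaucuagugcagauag
miR-34b-5p: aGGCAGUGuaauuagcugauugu
miR-7a-5p: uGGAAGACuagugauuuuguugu
MiR-20a and miR-20b have the same seed, and none of the 5 has a seed of miR-31. MiR-18a lies at chr14:115043867-115043889 and miR-20a at chr14:115044183-115044205, both on the plus strand. MiR-20b lies at chrX:52742159-52742181 and miR-34b-5p at chr9:51103610-51103632, both on the minus strand. MiR-7a comes from 2 loci, chr7:78888295-78888317 on the plus strand and chr13:58392841-58392863 on the minus strand.

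The 5 were picked by a correlation over 16 arrays that includes the UV difference, so their UV differences are given with no test. MiR-34b-5p had the largest, 1.94 in WT and 1.59 in KO. Its means without irradiation, 4.71 in WT and 4.51 in KO, were near the floor of 4.28. For miR-7a the difference was 0.43 in WT and 1.02 in KO. MiR-18a, miR-20a and miR-20b differed by 0.81, 0.27 and 0.39 in WT and by 1.20, 0.49 and 0.60 in KO. On WT no UV replicate 1 the 5 stood 0.11 (miR-20b) to 0.68 (miR-34b-5p) above the mean of their group's other arrays, less than the 1.14 of the strands. By deviations from the group means, the most like miR-31 were miR-34b-5p (r = 0.81), miR-425 (0.75) and miR-7a (0.73), and the most like miR-31* were miR-7a (0.81), miR-34b-5p (0.79) and miR-340-5p (0.76).

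**Figure D5:**
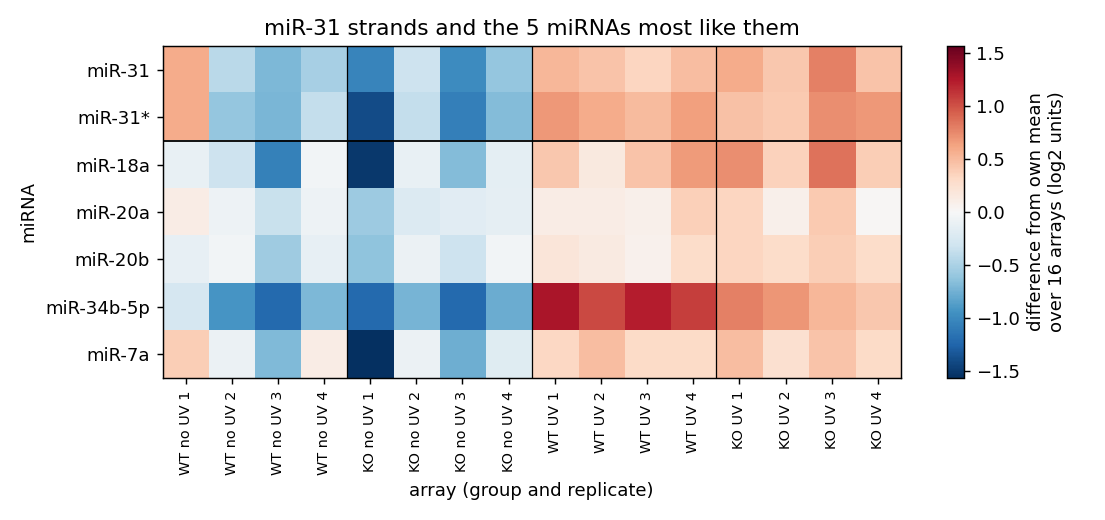
Log2 signal of the 2 miR-31 strands (top rows) and the 5 miRNAs most like them, as the difference from each miRNA's own mean over the 16 arrays, with arrays in columns by group and replicate. In WT no UV replicate 1 both strands are as high as on irradiated arrays. There miR-7a (6.23, against a WT UV mean of 6.20) and miR-20a (9.69, against 9.74) are near the WT UV level too. MiR-34b-5p (5.22, against 6.65), miR-18a (6.02, against 6.56) and miR-20b (8.35, against 8.66) are lower.

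The miRNAs of the cell types in skin were read beside miR-31. In whole skin, fewer cells of a type and less RNA per cell cannot be told apart, and sums over a list are led by its brightest probes. The lists were read on the quantile-normalized scale only. For miR-31 in KO, UV minus none was 1.30 on that scale and 0.77 without normalization. How far the list differences depend on normalization was not tested. All 7 keratinocyte miRNAs (miR-203, miR-205 and the miR-200 family) were detected on all arrays. In WT skin 4 of 7 rose with UV and none fell, where 9.21% of tested miRNAs rose, and their median difference was 0.44 beside 0 for all tested. In KO skin 6 of 7 rose, where 18.4% of tested miRNAs rose, with a median of 0.39. MiR-200c, which with its family keeps epithelial identity by restraining ZEB factors, rose from 10.06 ± 0.12 to 10.89 ± 0.25 in WT (SD, n = 4, limma adjusted p = 9.88e-04) and by 0.80 in KO (adjusted p = 0.00249). The others of the 4 with the smallest adjusted p were miR-141 (0.80 in WT and 0.44 in KO), miR-429 (0.53 and 0.37) and miR-200b (0.44 and 0.39), which all rose in both genotypes. MiR-203, which drives keratinocyte differentiation, differed by 0.30 in WT (limma adjusted p = 0.268) and rose by 0.59 in KO (adjusted p = 0.0284).

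The summed normalized signal of the keratinocyte list was 21539 to 25477 units in WT no UV, 26081 to 31708 in WT UV, 22225 to 27764 in KO no UV and 29320 to 43027 in KO UV. It was higher in irradiated skin, as both miR-31 strands were, and its part in their difference was not tested. On WT no UV replicate 1 it was 21539 units, the lowest of all arrays, while both strands were at the irradiated level. The correlation of the 7 miRNAs with miR-31 over the 16 arrays ran from -0.08 (miR-200a) to 0.70 (miR-200c).

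The 4 skeletal muscle miRNAs (miR-1, miR-133a, miR-133b and miR-206) ran opposite to miR-31, with r of -0.47 to -0.80 over the 16 arrays. Some members of other lists had such values too: r was -0.86 for miR-486, -0.84 for miR-145, and -0.66 for both miR-143 and miR-150. Others in the same lists did not, with r of -0.02 for miR-451, 0.65 for miR-214 and 0.71 for miR-155. The sum of the muscle list was 20453 to 41168 units in WT no UV, 21899 to 25985 in WT UV, 40655 to 50330 in KO no UV and 19464 to 24489 in KO UV. None of the 4 passed with UV in WT (median -0.23), and all 4 fell in KO (median -1.04, where 11.4% of tested miRNAs fell). The higher muscle sum in KO no UV than in KO UV stood beside the larger UV difference of miR-31 in KO, and its part in that difference was not tested. WT no UV replicate 1 read 22683 units, within the range of irradiated arrays, but was not the lowest of its group (20453).

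Of 13 miRNAs known from inflamed and wounded skin, 11 were tested, and miR-21* and miR-132 were not. None rose with UV in WT, where 9.21% of tested miRNAs rose, and 3 fell there, where 7.02% fell: miR-146a (-0.45), miR-221 (-1.32) and miR-222 (-1.30). In KO 4 rose and none fell, beside 18.4% and 11.4% of tested miRNAs: miR-21 (0.68), miR-146b (0.71), miR-155 (0.65) and miR-203 (0.59). MiR-21 read 14.59 on all WT UV arrays (SD 0) and on WT no UV replicate 1, the highest group mean in any list. A further rise of miR-21 in WT may therefore not register on this scale. In KO no UV that same value was held by miR-1 on all arrays (SD 0), so miR-21 (mean 13.73) ranked lower there. The part of this rank in the rise of miR-21 in KO was not tested. MiR-155, a miRNA of activated immune cells, correlated with miR-31 at r = 0.71 over the 16 arrays, and miR-221 at r = -0.44. The list median was -0.15 in WT and -0.04 in KO, beside 0 for all tested.

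The 7 leukocyte miRNAs were all tested. With UV in WT 3 fell (miR-146a, miR-150 and miR-342-3p) and none rose, and in KO miR-155 rose and miR-150 fell. The shares of all tested miRNAs that rose and fell were 9.21% and 7.02% in WT and 18.4% and 11.4% in KO, and the KO counts of 1 of 7 each way were near them. MiR-150, a miRNA of mature lymphocytes, differed by -1.05 in WT (limma adjusted p = 3.29e-04) and by -0.56 in KO (adjusted p = 0.0169). The leukocyte sum was 5326 to 7081 units in WT no UV, with replicate 1 highest, 4147 to 4966 in WT UV, 3433 to 5426 in KO no UV and 3485 to 4103 in KO UV. It was lower in irradiated than in non-irradiated WT skin, opposite to miR-31.

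Of 6 fibroblast and vessel miRNAs on the array, miR-126-3p rose in WT (0.46) and miR-214 in KO (0.32), while miR-145 fell in both (-0.93 in WT and -1.66 in KO) and miR-143 fell in KO (-0.79). That is 1 of 6 up and 1 down in WT, and 1 up and 2 down in KO, beside the same shares. Their sum was 3095 to 4110 units in WT no UV, 3710 to 4230 in WT UV, 3931 to 4375 in KO no UV and 3506 to 3863 in KO UV. Of 3 erythrocyte miRNAs, miR-451 and miR-486 were tested, and miR-486 fell in KO (-0.86). Their sum ran from 747 to 2184 units over all arrays, and replicate 1 of WT no UV, at 933, was the lowest of its group. No list member was called between genotypes in either irradiation state, and in the interaction miR-126-3p alone was (0.45, limma adjusted p = 0.0345). MiR-126-3p read 11.10 on all KO UV arrays (SD 0), where quantile normalization gave it the same value. With the replicate number as a block, interaction calls over all miRNAs went from 5 to 1.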

How the data were processed

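MiRNAs of 16 dorsal skin samples were measured on 1-colour Agilent mouse arrays. Per the labels, total RNA was labelled with pCp-Cy3, and the submitters' processing notes name Agilent Feature Extraction 9.5.3.1. The array release given in the methods is later than the design in the file headers, and the headers were followed. The deposited scanner files hold intensity values, not normalized between arrays, in which the software subtracted a fitted spatial background and summed the spots into a total gene signal. The authors' series table holds log2 values after invariant-set and quantile normalization, with an unstated offset. Its columns matched their own array best in 16 of 16 cases (lowest Spearman correlation 0.9994), and it served as an alternative.

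Total gene signals of 577 miRNAs were quantile normalized with limma 3.58.1 in R 4.3.3, floored at 19.4 units (4.28 on the log2 scale, the 5th percentile among detected miRNAs, as the median of 16 arrays) and logged. A miRNA was tested when detected on all 4 arrays of a group, which left 228 (3 viral), of which 167 were detected on all 16 arrays. A group-means model without replicate block was fitted to all arrays, and a miRNA was called when its p, adjusted over the 228 by Benjamini-Hochberg, was under 0.05. Strand ratios were compared by exact permutation. Figures and summaries used Python 3.11.15.

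The members and lists were chosen with earlier results of these data known. Named were the 5 miRNAs most like each strand over 16 arrays among those detected on all, the 3 most like by deviations from group means, the hairpins with the largest and smallest change of the strand ratio, and up to 4 miRNAs per list, first those called with UV. Members behind a count of 5 or fewer were also named, after their values were seen. The lists were keratinocyte, inflamed and wounded skin, leukocyte, skeletal muscle, fibroblast and vessel, and erythrocyte miRNAs. Alternatives changed the normalization, background, floor, probes, block, slide row and arrays. On simulated data the fit was tested before use.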

Additional observations from a re-analysis of the deposited data

Results flagged for a closer look

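In 20 checks of the strands and their ratio by group, where chance marks about 1 group in 20, 2 arrays stood far from the other arrays of their group. The strand log2 ratio of KO no UV replicate 1 was 3.02, with a gap to the next array of 0.892 of the group's range. That array had the lowest signal of both strands after normalization. Before normalization its log2 ratio was 2.75, within its group's range of 2.67 to 2.92. The spots of its miR-31* probes varied with a CV of 25.7% and 20.2%. On WT no UV replicate 3, whose normalized ratio was 2.67, the same probes had a CV of 28.9% and 19.5%. The ratio of WT UV replicate 2 was 2.53, with a gap of 0.893 of a range of 0.034 units, which is a spread smaller than in any other group. WT no UV replicate 1, whose strands stood at the irradiated level, did not pass this check for either strand.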

How the results depend on the processing

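Values below are log2 differences. UV minus none kept its direction for both strands in both genotypes under every alternative run. Without normalization it was 0.77 (miR-31) and 0.82 (miR-31*) in KO, and with normexp 0.78 and 0.30. Without normalization KO minus WT for miR-31 was 0.064 without irradiation and -0.18 after it, and the interaction was 0.24 for miR-31 and 0.31 for miR-31*. With normexp KO minus WT without irradiation was 0.34 for miR-31 and 0.082 for miR-31*, the interaction was 0.25 and 0.26, and UV minus none in the strand ratio was 0.47 in WT and 0.48 in KO. KO minus WT after irradiation of miR-31* was 8.24e-04 with 75th percentile scaling, 0.23 with slide row as a covariate, -0.31 without normalization and -0.18 with normexp. Slide row also moved this difference to 0.52 for miR-31, and the interaction to -0.996 (miR-31) and -0.83 (miR-31*). With the 17-base probe of miR-31 alone the ratio interaction was 0.041. With the 18-base probe of miR-31* the ratio gave 0.12 for UV in KO and -0.067 for KO minus WT without irradiation, and with the 19-base probe -0.39 for UV in WT. The causes were not tested. None of these genotype or interaction differences passed its test.

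Leaving out each array in turn, UV minus none ran from 0.57 to 1.01 (miR-31) and 0.73 to 1.16 (miR-31*) in WT, and from 1.20 to 1.45 and 1.27 to 1.61 in KO, the WT extremes being without replicates 3 and 1 of WT no UV. KO minus WT of miR-31* after irradiation ran from -0.081 to 0.023, that of the ratio from 0.10 to 0.21 (the latter without KO UV replicate 4, exact p = 0.0286), and the ratio interaction from -0.090 to 0.035.

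Same-numbered arrays deviated together in part: r ran from -0.347 to 0.32 and was above 0.1 in 10 of 16 pairs, among them all 4 pairs of WT no UV with WT UV (0.132 to 0.32), but not all pairs of any other 2 groups compared. With the number as a block, the miR-31 and miR-31* differences were the same size (KO minus WT without irradiation -0.47 and -0.60, limma adjusted p = 0.431 and 0.374), and calls over all miRNAs went from 5 to 1 in the interaction and from 37 to 40 and 68 to 61 with UV in WT and KO.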
